A study of Mus musculus with 9 samples.

Results

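Myelin genes of mature oligodendrocytes were followed in RNA from brain of mice labelled male and of KM, which is an outbred stock. The members were taken by name from a list of 9 genes: Mbp, Mobp, Cnp, Mog, Mag, Opalin, Mal, Cldn11 and Mbpl1. Of these, 8 had a row among the 22192 genes of the deposited table, and all 8 were among the 13301 genes tested, those whose mean reached 1 TPM (a transcript level scaled for gene length and for the library total). Mbpl1 had no row under that name and was not analysed here. The study held 9 libraries in 3 groups of 3. Young mice were 5 months old and had oral physiological saline, aged mice were 18 months old and had the same saline, and treated mice, also of 18 months, had GRP-E1F2, named in the series as a ginseng root polysaccharide, at 200 mg/kg by gavage. Doses were given at intervals of 2 days over 4 weeks in all groups. No transgene or mutation is labelled in any group, and all tissue is labelled brain with no region named.

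Oligodendrocytes wrap axons of the central nervous system in many layers of membrane, and this myelin sheath speeds the conduction of impulses. The sheath is held together by a small set of abundant proteins. Basic proteins glue the cytoplasmic faces of the membrane to each other, and adhesion molecules of the outer and inner surfaces face other cells and the axon. Tight junction strands seal the spaces between the layers. White matter tracts of the brainstem, the cerebellum and the corpus callosum are rich in such cells, so the myelin content of a brain sample depends on which regions it holds.

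The labels call the libraries of a group parallel samples and do not say that they came from separate animals. P-values therefore measure only how far these libraries spread, and that spread may be technical. Each group held 1 library with values intermediate to its partners at most genes. Among tested genes on which the partners were 1.3-fold or more apart, the share with an intermediate value was 89.2% for young library 3, 91.5% for aged library 2 and 91.8% for treated library 3. Each of these had an intermediate value at 6 of the 8 myelin genes, and for the remaining 6 libraries the share was 19.2% to 30.5%. Counts of calls are therefore repeated with these 3 libraries left out, which leaves 2 libraries per group. Library sums were 999667 to 999929 TPM, and TPM keeps no record of depth, so no counting error can be given. The extraction protocol speaks of retina, but the summed level of 6 photoreceptor genes was at most 2.17 TPM in any library. Gnat1 of rods had a listed value of 0 in every young library, at most 0.0434 TPM in aged and 0.0885 to 0.230 TPM in treated libraries. The mice are labelled male, but none of the genes Uty, Kdm5d, Eif2s3y and Ddx3y of the Y chromosome, 4 in all, exceeded 0.174 TPM in any of the 9 libraries.

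Promoter sequences of 4 members are shown first, as a description. Sequences are from RefSeq on GRCm38.p6, the build also called mm10, and cover 250 bases before to 50 after an annotated start, written in the direction of the gene. Promoters were found for 7 of the 8 members. Capitals mark 3 motifs, searched on both strands. CTGGNAC (N for any base) is a loose pattern for the site of MYRF, the transcription factor that drives the myelin programme. Not every match to it need fit that site. ACAAAG is a core bound by SOX factors such as SOX10, and GGGCGG is the GC box of SP factors. Matches do not overlap in the windows printed.
Mog, chr17:37023349-37023648, minus strand: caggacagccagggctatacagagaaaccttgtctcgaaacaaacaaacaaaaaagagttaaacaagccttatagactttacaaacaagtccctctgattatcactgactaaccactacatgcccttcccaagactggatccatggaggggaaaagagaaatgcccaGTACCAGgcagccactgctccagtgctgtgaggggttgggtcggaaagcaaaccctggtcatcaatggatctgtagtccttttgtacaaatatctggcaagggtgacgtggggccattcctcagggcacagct
Cnp, chr11:100574689-100574988, plus strand: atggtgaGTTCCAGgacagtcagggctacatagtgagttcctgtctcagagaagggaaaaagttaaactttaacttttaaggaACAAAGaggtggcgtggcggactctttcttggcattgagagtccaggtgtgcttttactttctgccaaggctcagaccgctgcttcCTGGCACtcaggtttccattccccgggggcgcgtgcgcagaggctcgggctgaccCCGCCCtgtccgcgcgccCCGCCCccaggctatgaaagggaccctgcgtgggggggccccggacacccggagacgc
Mobp, chr9:120149492-120149791, plus strand: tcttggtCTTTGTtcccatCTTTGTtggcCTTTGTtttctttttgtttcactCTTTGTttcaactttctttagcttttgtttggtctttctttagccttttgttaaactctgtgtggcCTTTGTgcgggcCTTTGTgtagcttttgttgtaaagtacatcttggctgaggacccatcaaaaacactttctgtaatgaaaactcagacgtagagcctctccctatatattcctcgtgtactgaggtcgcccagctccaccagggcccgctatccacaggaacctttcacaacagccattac
Opalin, chr19:41077064-41077363, minus strand: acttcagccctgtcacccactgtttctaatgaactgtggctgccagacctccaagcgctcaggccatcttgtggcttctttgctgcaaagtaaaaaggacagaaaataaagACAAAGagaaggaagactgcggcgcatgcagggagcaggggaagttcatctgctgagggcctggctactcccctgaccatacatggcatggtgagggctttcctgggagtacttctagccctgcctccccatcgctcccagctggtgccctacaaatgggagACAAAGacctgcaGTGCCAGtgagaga

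The 7 genes had 9 windows, 3 of them of Mag. CTGGNAC was present in 5 of the 9 windows (of Mog, Mag, Cnp and Opalin, 4 genes), beside 19.3% of all 32851 windows in the table. ACAAAG was also present in 5 of 9 (of Mag, Mobp, Cnp and Opalin), beside 18.7% of all windows. The Mag windows that held them overlap, so they share the same letters. The Mobp window held 6 copies of ACAAAG, all on the opposite strand, the outermost at positions -243 and -120 from the start. The Opalin window held both motifs, with ACAAAG at -139 and 24 and CTGGNAC at 37. GGGCGG was found in 2 of 9 windows, those of Cnp and Cldn11, beside 35.7% of all windows, and the Mal window held none of the 3. TATAAA, the TATA box, was found in none of the 9, beside 13.6% of all windows. These matches are letters in a window and not shown to be bound. Any link between them and the levels of the members was not tested.

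Levels of the members were far apart. Mbp and Mobp ranked 28 and 39 among all 22192 genes by mean TPM and made up 87.9% to 90.0% of the summed TPM of the 8 genes in every library. That sum was 8279 to 8723 TPM in young, 5638 to 6920 TPM in aged and 5137 to 5332 TPM in treated libraries. It took 0.828% to 0.873% of all TPM in young, 0.564% to 0.692% in aged and 0.514% to 0.533% in treated libraries. The sum was thus highest in the 3 young libraries and lowest in the 3 treated libraries, with no overlap between groups.

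The question of the first comparison was what differed between aged and young brain under saline. Of the 8 myelin genes 6 fell with age and none rose: Mbp, Mobp, Cnp, Mog, Mal and Cldn11. Their mean levels were 19.6% to 31.4% below young. Over all genes tested, 11.2% fell and 5.48% rose, so that 16.7% were called. The median log2 fold change was -0.41 over the 8 members and -0.05 over all genes tested. All 8 fold changes were negative, and the groups did not overlap, with aged lower, at 6 members, beside 26.8% of all genes that were lower and 14.7% that were higher without overlap. Calls are from limma on log2(TPM + 1) at an adjusted p under 0.05. The split of all calls depended on scaling, with 729 higher and 1488 lower as deposited and 925 higher and 1025 lower after median-of-ratios scaling. With 2 libraries per group none of the 8 was called, while 5 had an unadjusted p under 0.05.

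The next comparison, which shares the aged libraries with the first, asked what differed between treated and aged mice, both 18 months old. Of the 8 members 4 were lower with GRP-E1F2 and none higher: Mbp, Cnp, Mog and Mal, with mean levels 14.6% to 21.2% below aged. Over all genes tested 13.4% fell and 7.47% rose, 20.8% in all, and after quantile normalisation 1466 rose and 1470 fell where the deposited values gave 994 and 1777. The median log2 fold change was -0.27 over the members and -0.02 over all genes. The groups did not overlap, with treated lower, at the same 4 members, beside 21.5% of all genes that were lower and 14.9% that were higher without overlap. With 2 libraries per group none of the 8 passed, and 3 had an unadjusted p under 0.05.

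The comparison of treated with young mice joins age and treatment and shares libraries with both others. It called 7 of 8 members lower and none higher, every member except Opalin. Over all genes tested 29.4% fell and 17.2% rose, which is 46.6% called, and after quantile normalisation 3115 rose and 2978 fell where the deposited values gave 2294 and 3910. The median was -0.67 over the members and -0.07 over all genes. The groups did not overlap at 7 members, beside 38.5% of all genes that were lower and 22.9% that were higher without overlap. With 2 libraries per group 5 of 8 members still passed: Mbp, Mog, Cnp, Mal and Cldn11.

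**Figure D1:**
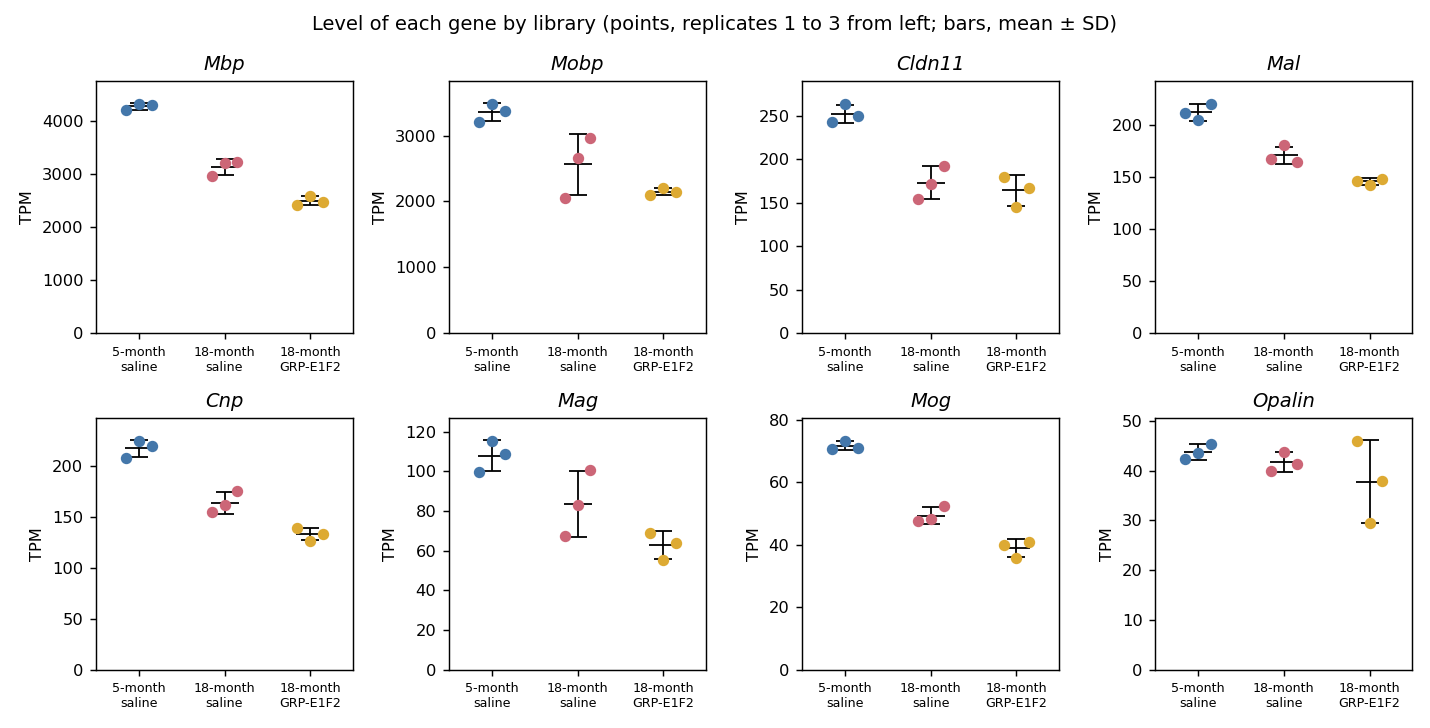
TPM (vertical axes, from 0) of the 8 myelin genes in the 9 libraries, with points for libraries and bars for the mean ± SD of 3 libraries. Mbp, Mog, Cnp and Mal step down from young to aged to treated without overlap, while the 3 groups of Opalin overlap.

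Of the basic proteins that compact the sheath, Mbp encodes myelin basic protein (NCBI gene 17196, chromosome 18, 82475091 to 82585637, plus strand, mm10). It is the major cytoplasmic adhesive of central myelin, and its gene spans 110.5 kb with 16 annotated GENCODE transcripts, while the table gives 1 value. Mbp stood at 4198, 4317 and 4293 TPM in the young libraries, at 2956, 3210.4 and 3223 TPM in the aged and at 2421, 2586 and 2477 TPM in the treated. The lowest library of each older step lay well clear of the next group, so no 2 groups overlapped. Means were 4269 ± 62.8, 3130.0 ± 150.5 and 2495 ± 84.2 TPM (SD, n = 3). Log2 fold changes were -0.45 with age (SE 0.0572, adjusted p = 0.0036) and -0.33 with treatment (adjusted p = 0.00469). Treated against young gave -0.78 (adjusted p = 1.49e-05).

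Mobp encodes the myelin-associated oligodendrocytic basic protein, another basic protein of compact central myelin (gene 17433, chromosome 9, 120149742 to 120181488, plus strand). It measured 3206, 3482 and 3382 TPM in young, 2051, 2662 and 2970.3 TPM in aged and 2096, 2211 and 2142 TPM in treated libraries. The aged libraries spread 1.45-fold, and aged library 1 lay below all treated libraries. Means were 3356 ± 139.5, 2561 ± 468 and 2149.8 ± 57.8 TPM (n = 3). With age the log2 fold change was -0.41 (SE 0.118, adjusted p = 0.0458), a call that ended after median-of-ratios scaling (adjusted p = 0.0896) and without young library 3 (adjusted p = 0.138), among other settings. With treatment it was -0.24 and was not called (adjusted p = 0.187), but without aged library 1 it was -0.39 and was called (adjusted p = 0.00711).

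Cnp encodes the phosphodiesterase CNPase, which keeps cytoplasmic channels of the sheath open (gene 12799, chromosome 11, 100574909 to 100591875, plus strand). Values were 208, 224 and 219 TPM in young, 154, 161 and 175 TPM in aged and 138, 126 and 133 TPM in treated libraries. Each group lay wholly below the one before it. The log2 fold changes of Cnp were -0.41 with age (SE 0.0637, adjusted p = 0.00731), -0.30 with treatment (adjusted p = 0.0117) and -0.71 for treated against young (adjusted p = 4.55e-05).

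Among the surface glycoproteins, Mog encodes myelin oligodendrocyte glycoprotein, which sits on the outermost layer and is a target of antibodies in demyelinating disease (gene 17441, chromosome 17, 37010740 to 37023398, minus strand). Its levels were 70.7, 73.3 and 71.0 TPM in young, 47.4, 48.3 and 52.3 TPM in aged and 40.0, 35.6 and 41.0 TPM in treated libraries. No groups overlapped, and the young libraries spread only 1.04-fold. The fold change of Mog with age was -0.53 on the log2 scale (SE 0.0667, adjusted p = 0.00349) and that with treatment -0.34 (adjusted p = 0.00823). Treated against young it was -0.87, the most negative of the 8 members (adjusted p = 1.81e-05).

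Mag encodes myelin-associated glycoprotein, a lectin of the innermost layer that faces the axon (gene 17136, chromosome 7, 30899175 to 30914922, minus strand). It was 99.6, 115 and 108 TPM in young, 67.2, 82.9 and 101 TPM in aged and 69.1, 55.2 and 64.0 TPM in treated libraries. Aged library 3 reached the level of young library 1, and aged library 1 that of treated library 1, so both neighbouring pairs of groups overlapped. Mag had a log2 fold change of -0.38 with age (SE 0.139, adjusted p = 0.0883) and of -0.39 with treatment (adjusted p = 0.0757), neither of which passed. Without aged library 3 the age change was -0.52 (adjusted p = 0.0246), and without aged library 1 the treatment change was -0.54 (adjusted p = 0.0168). Treated against young the groups did not overlap and Mag fell by 0.77 on the log2 scale (adjusted p = 0.00192).

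Opalin encodes a transmembrane glycoprotein of the paranodal loops and inner loop of oligodendrocytes (gene 226115, chromosome 19, 41061959 to 41077113, minus strand). Levels were 42.3, 43.6 and 45.5 TPM in young, 39.9, 43.8 and 41.4 TPM in aged and 46.0, 29.5 and 37.9 TPM in treated libraries. Treated library 1 was the highest of all 9 and treated library 2 the lowest, a 1.56-fold spread within 1 group. No comparison called Opalin, with log2 fold changes of -0.07 for age (SE 0.132, adjusted p = 0.751), -0.16 for treatment (adjusted p = 0.428) and -0.23 for treated against young (adjusted p = 0.186). Without treated library 1 the last was -0.38 and was called (adjusted p = 0.0162). Leaving out treated library 2 turned the treatment change of Opalin to 0.0032 (adjusted p = 0.984).

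Of the membrane and junction proteins, Mal encodes a small lipid raft protein that sorts cargo to the myelin membrane (gene 17153, chromosome 2, 127633226 to 127656695, minus strand). It was at 212, 204 and 219.9 TPM in young, 167, 180.1 and 164 TPM in aged and 146, 142 and 148 TPM in treated libraries. The 3 groups did not overlap. Its age change was the smallest of the 6 genes called with age. The log2 fold changes of Mal were -0.31 with age (SE 0.0548, adjusted p = 0.00986), -0.23 with treatment (adjusted p = 0.0198) and -0.54 for treated against young (adjusted p = 8.97e-05). The treatment call of Mal ended without aged library 2 (adjusted p = 0.0909) or treated library 3 (adjusted p = 0.0622), and the age call without young library 3 (adjusted p = 0.0593).

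Cldn11 encodes claudin 11, which forms the tight junction strands between myelin layers (gene 18417, chromosome 3, 31149920 to 31164326, plus strand). Values were 243, 264 and 249.9 TPM in young, 155, 172 and 193 TPM in aged and 180.1, 145 and 167 TPM in treated libraries. The young libraries lay above all 6 others, and aged and treated libraries were interleaved. Cldn11 fell by 0.55 on the log2 scale with age (SE 0.0967, adjusted p = 0.0101), and treated against young by 0.62 (adjusted p = 0.000904). Without young library 3 or aged library 2 the age call narrowly ended (adjusted p = 0.0507 and 0.0512). The treatment change was -0.07 (adjusted p = 0.621), and it turned to 0.0047 without aged library 3 and to 0.0096 without treated library 2. Claudin 11 is also made by meningeal cells. Of 8 tested meningeal fibroblast genes 6 fell with age and 2 with treatment (Dcn and Ptgds), beside 11.2% and 13.4% of all genes tested. On 2 libraries per group limma called none of these 8 with age or treatment (6 and 1 had an unadjusted p under 0.05). The summed TPM of the 9 genes listed was 2228 to 2341 in young, 1467 to 1984 in aged and 1319 to 1336 in treated libraries, most of it from Ptgds, which oligodendrocytes also make. The part of these cells in the Cldn11 result was not tested.

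Exact two-sided permutation tests of the 3 against 3 TPM values cannot go below p = 0.1. They gave that smallest p for 6 members with age, 4 with treatment and 7 for treated against young. These were the members whose groups did not overlap. For Opalin the exact p was 0.3 with age, 0.6 with treatment and 0.4 for treated against young, and for Mag it was 0.2 with age and 0.2 with treatment.

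**Figure D2:**
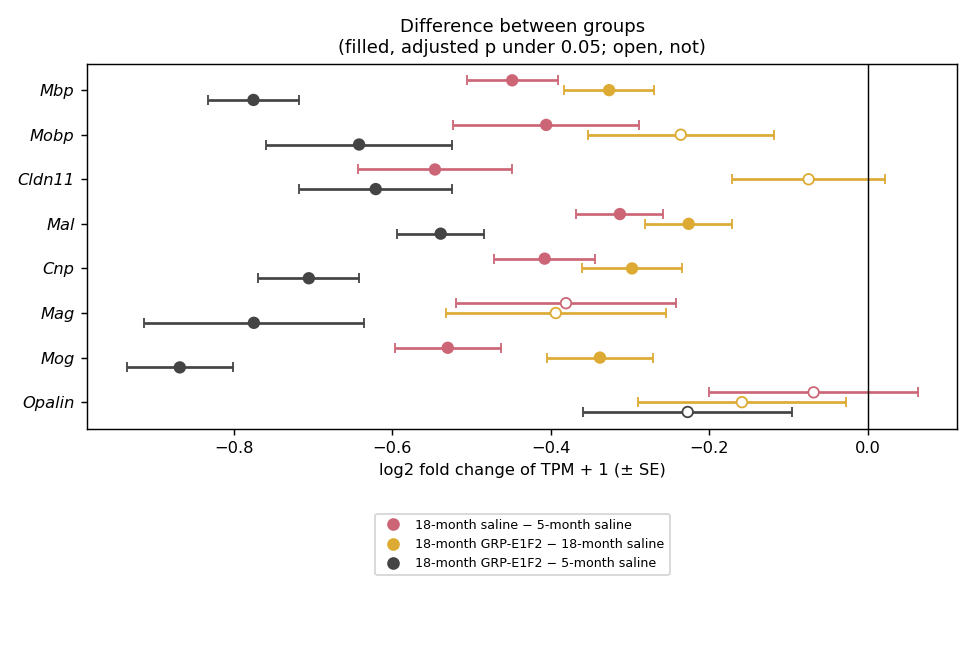
Log2 fold change of TPM + 1 (horizontal axis) with its SE for each gene in 3 comparisons, filled where the adjusted p was under 0.05. All values are below 0, Mog is lowest for treated against young at -0.87, and Opalin is open in all 3.

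The order of the members by level was nearly the same in each group. In young libraries it ran Mbp, Mobp, Cldn11, Cnp, Mal, Mag, Mog and Opalin, and of the neighbours only Cnp and Mal overlapped, at 217 ± 8.50 and 212 ± 7.91 TPM. In aged libraries Mbp and Mobp overlapped, and Cldn11, Mal and Cnp, at 173 ± 19.0, 170.4 ± 8.52 and 164 ± 10.7 TPM, overlapped one another. In young libraries Mog, at 71.7 ± 1.44 TPM, lay well above Opalin, at 43.8 ± 1.59 TPM. In treated libraries these genes stood at 38.9 ± 2.87 and 37.8 ± 8.26 TPM and overlapped. Cldn11 and Mal also overlapped in treated libraries, at 164 ± 17.5 and 145 ± 3.36 TPM.

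Within a group the members tended to be low in the same library, and the share of all genes that did so was not counted. Young library 3, aged library 2 and treated library 3 were intermediate at most genes whose partners differed, as given above. The lowest library of a group was thus mainly one of the others at genes in general. Aged library 1 was lowest at 7 of 8 members, all but Mal, and aged library 3 was highest at 6. Young library 1 was likewise lowest at 7 of 8, again all but Mal. Treated library 2 was lowest at 6 members but highest at Mbp and Mobp, so the basic proteins went against the other 6 there. The highest library exceeded the lowest by a median of 1.08-fold over the members in young, 1.12-fold in aged and 1.12-fold in treated libraries.

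Other genes of the myelinating oligodendrocyte were read from a list of 30, chosen like the members with earlier results of these data known. With age 20 of 30 fell and none rose (median log2 fold change -0.35). With treatment 18 of 30 fell and none rose (-0.30), and for treated against young 27 fell and 1 rose (-0.67). Over all genes tested 11.2%, 13.4% and 29.4% fell in these comparisons, and 5.48%, 7.47% and 17.2% rose. Trf, the transferrin gene, fell with age from 149.8 ± 12.9 to 97.0 ± 13.1 TPM (-0.63, adjusted p = 0.00778). Septin4, a cytoskeletal filament gene, fell with treatment from 201 ± 15.3 to 114 ± 9.82 TPM (-0.81, adjusted p = 0.000537). The 1 gene that rose for treated against young was Omg, the oligodendrocyte myelin glycoprotein, which neurons also express, from 57.4 ± 2.62 to 72.6 ± 2.60 TPM. It was named after its value was seen. In the fit to 2 libraries per group limma called none of the 30 with age or with treatment (13 and 11 had an unadjusted p under 0.05), and 19 fell for treated against young.

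Of 9 genes listed for myelin lipid synthesis, not all of them particular to myelin, 8 fell with age, with a median of -0.34 and none higher. Over all genes tested 11.2% fell with age and 29.4% for treated against young. Fa2h, the hydroxylase of myelin galactolipid fatty acids, fell from 28.1 ± 0.955 to 18.0 ± 1.65 TPM (-0.62, adjusted p = 0.00426). Elovl1, which elongates very long fatty acids, fell from 28.6 ± 3.67 to 19.5 ± 0.875 TPM, and Ugt8a, the galactosyltransferase of galactocerebroside synthesis, from 13.4 ± 0.221 to 9.87 ± 0.987 TPM. With treatment limma called none of the 9 (2 had an unadjusted p under 0.05), at a median of -0.13. Whether the lipid genes responded differently to age and treatment was not tested. For treated against young 8 of 9 fell, and 4 of 9 did so with 2 libraries per group, where limma called none with age (4 had an unadjusted p under 0.05) or with treatment (0 did).

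Genes of the oligodendrocyte lineage, which also mark precursors, were read from 12 genes. With age 1 of 12, Bcas1, a gene of early myelinating cells, fell, from 64.8 ± 2.08 to 45.6 ± 8.86 TPM (-0.52, adjusted p = 0.028), and none rose. With treatment 1 of 12, Gpr17, a receptor of committed precursors, rose, from 5.38 ± 0.266 to 7.40 ± 1.22 TPM (0.39, adjusted p = 0.0461). Olig1, a transcription factor of the whole lineage, was 79.1 ± 3.95, 70.0 ± 16.4 and 67.3 ± 2.38 TPM in young, aged and treated libraries, and Sox10, its partner in the myelin programme, 20.9 ± 0.984, 19.0 ± 1.97 and 18.2 ± 1.56 TPM. Neither passed in any comparison. For treated against young 4 of 12 fell (Nkx2-2, Bcas1, Enpp6 and Ptprz1) and 1, the precursor receptor gene Pdgfra, rose. Over all genes tested 11.2% fell with age, 7.47% rose with treatment, and 29.4% fell and 17.2% rose for treated against young. The difference between the lineage list and the myelin members was not tested. From 2 libraries per group limma called none of the 12 in any comparison (1, 0 and 4 had an unadjusted p under 0.05 with age, with treatment and for treated against young). In bulk tissue, fewer oligodendrocytes and less myelin RNA per cell cannot be told apart.

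The axonal partners of myelin were read from 13 genes of nodes and axoglial contacts. With age 1 fell, Cadm3, an adhesion molecule of axons, from 379 ± 38.5 to 305 ± 7.11 TPM (-0.31, adjusted p = 0.0251). With treatment Cadm3, Cntn2 and Kcna2, a potassium channel beside the paranode, fell and the adhesion molecule Cadm1 rose. Cadm3 was 198 ± 6.30 TPM in treated libraries (-0.62, adjusted p = 0.000581). Cntn2, a contactin of the same juxtaparanodal region, fell from 24.3 ± 0.282 to 16.1 ± 1.89 TPM (-0.57, adjusted p = 0.00189). For treated against young 6 fell and 2 rose. Over all genes tested 11.2% fell with age, and 13.4% fell and 7.47% rose with treatment. For treated against young 29.4% of all genes tested fell and 17.2% rose. In the fit to 2 libraries per group limma called none of the 13 with age or treatment (0 and 4 had an unadjusted p under 0.05), and 2 fell for treated against young. Cadm4, the glial partner of axonal Cadm3, was 266 ± 0.545, 262 ± 25.7 and 252 ± 16.1 TPM and was not called.

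MAG acts with other myelin proteins on Nogo receptors of the neuron, and of 8 tested genes of these ligands and receptors 2 rose with age and 1 with treatment. Rtn4, the Nogo gene, rose with age from 334 ± 32.8 to 455 ± 81.9 TPM (0.43, adjusted p = 0.041), and Tnfrsf19, a co-receptor, from 8.96 ± 0.364 to 11.7 ± 0.598 TPM (0.35, adjusted p = 0.0108). Tnfrsf19 also rose with treatment, to 14.1 ± 0.428 TPM (0.25, adjusted p = 0.0249). Rtn4r, the Nogo receptor, was 41.5 ± 1.98, 51.5 ± 2.51 and 47.3 ± 18.8 TPM and did not pass. For treated against young 4 of 8 rose (Rtn4, Rtn4rl2, Lingo1 and Tnfrsf19) and 1, Lrp1, fell. Over all genes tested 5.48% rose with age, 7.47% rose with treatment, and 17.2% rose and 29.4% fell for treated against young. From 2 libraries per group limma called none of the 8 with age or treatment (1 and 0 had an unadjusted p under 0.05), and 1 rose for treated against young.

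Peripheral myelin of Schwann cells, which could enter with cranial nerves, was read from 8 genes, of which 4 were tested. Pmp2, a fatty acid binding protein of Schwann cells, had a listed value of 0 in each young and each treated library. With age Egr2 and Drp2 rose, and with treatment Drp2 rose and Pmp22 fell. Over all genes tested 5.48% rose with age, and 7.47% rose and 13.4% fell with treatment. The genes of the list left untested did not reach a mean of 1 TPM. Whether the changes of Egr2, Drp2 and Pmp22 came from Schwann cells was not tested. Pmp22, which brain cells also express, was the highest of the list and went with treatment from 65.7 ± 3.24 to 38.8 ± 3.36 TPM (-0.75, adjusted p = 0.00264). With 2 libraries per group none of the 4 was called by limma with age or treatment (1 and 1 had an unadjusted p under 0.05).

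Markers of several brain regions and of other cells moved with the groups beside the myelin genes, but not those of every list. Over all genes tested 11.2% fell and 5.48% rose with age, and 13.4% fell and 7.47% rose with treatment. Of 12 cerebellar neuron genes 10 fell with age and 11 with treatment, and their summed TPM was 6164 to 8523 in young, 4025 to 4331 in aged and 472 to 552 in treated libraries. Most of the treated sum was Pvalb, which went with treatment from 1943.5 ± 62.0 to 356 ± 45.3 TPM. Pcp2 of Purkinje cells was 1589.6 ± 319, 807 ± 163 and 5.99 ± 2.97 TPM in young, aged and treated libraries, and Cbln3 435 ± 73.2, 276 ± 2.13 and 0.190 ± 0.132 TPM. All 6 tested hindbrain and spinal cord genes of 9 listed fell with age, with sums of 43.1 to 61.6 TPM in young, 1.55 to 8.64 TPM in aged and 0.374 to 0.578 TPM in treated libraries. Hoxb5, Hoxd4, Hoxb6 and Slc6a5 were listed at 0 in all treated libraries. In the other direction, 4 of 8 neocortical genes (Tbr1, Rorb, Mef2c and Camk2a) rose with age and none passed with treatment. Astrocyte genes fell at 5 of 8 with age and 5 of 8 with treatment, with sums of 1943 to 2334, 1544 to 1726 and 976 to 1010.5 TPM. Of 8 microglia genes 3 rose with age (Csf1r, P2ry12 and P2ry13) and 2 with treatment (Csf1r and Cx3cr1). Of 8 pan-neuronal genes 4 fell and 1 rose with age, and 2 fell with treatment. Of 7 thalamic genes 1 fell with age and 3 with treatment, and no striatal gene passed in either comparison. For the pan-neuronal, thalamic and striatal lists, calls with 2 libraries per group were not counted. Libraries of the same group also differed in such markers. Anterior pituitary genes summed to 3.61 TPM in the lowest and 879 TPM in the highest treated library. The 9 striatal genes summed to 423 to 1342 TPM in young, 1382 to 1877 in aged and 1057 to 3047 in treated libraries. The 6 choroid plexus genes summed to 2249 to 2306 TPM in young, 158 to 1250 in aged and 21.0 to 963 in treated libraries. On 2 libraries per group limma called no gene of the cerebellar, hindbrain, neocortical, astrocyte and microglia lists with age, where 11 of 12, 6 of 6, 3 of 8, 5 of 8 and 3 of 8 had an unadjusted p under 0.05. With treatment 11 of 12 cerebellar genes and 2 of 8 astrocyte genes still fell in that fit, and no gene of the hindbrain, neocortical and microglia lists passed (1, 0 and 1 had an unadjusted p under 0.05). The labels name no region, so the tissue taken and the age or treatment cannot be told apart in the myelin changes, and the part of region in them was not tested.

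**Figure D3:**
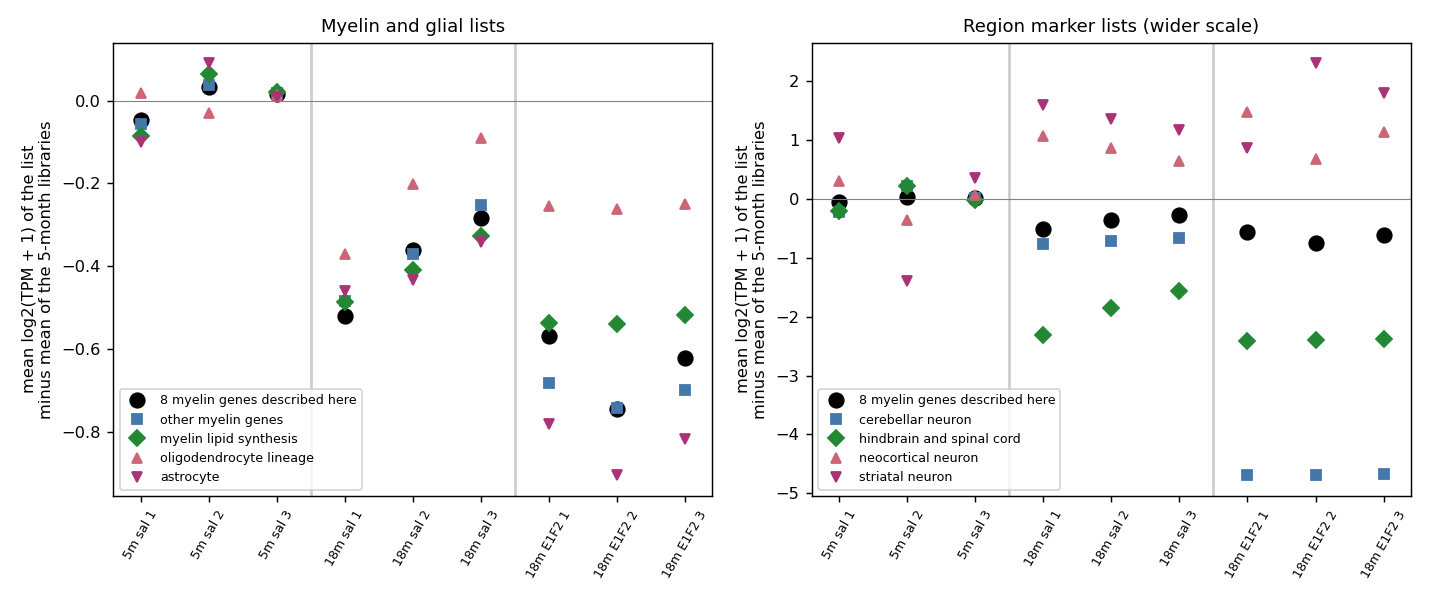
Mean log2(TPM + 1) of each gene list minus its mean over the 3 young libraries (vertical axes, of different scale), for each of the 9 libraries, with each symbol a list. The 8 myelin genes (black) lie 0.28 to 0.52 below young in the aged and 0.57 to 0.74 below in the treated libraries, beside larger falls of cerebellar and hindbrain lists.

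Of the 8 members 7 had age changes in the lower part of the range of all genes, but not at its end. Of the genes tested, 4.01% had a more negative change than Cldn11, 6.07% than Mbp and 46.4% than Opalin. With treatment 10.5% were more negative than Mag, which was not called, and 13.6% than Mbp. The share was 19.7% for Mobp, 20.5% for Mal, 27.4% for Opalin and 39.7% for Cldn11. Larger changes than those of the members were thus found in both comparisons.

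**Figure D4:**
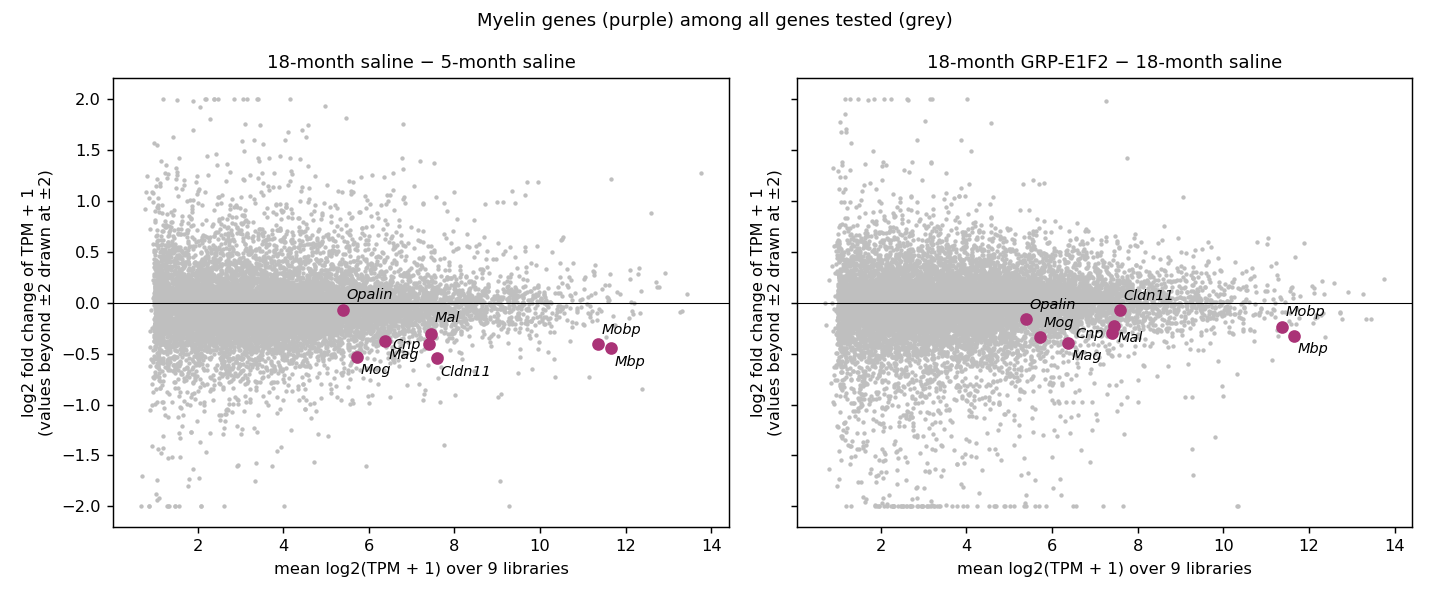
Log2 fold change (vertical axis, values beyond 2 drawn at the edge) against mean log2(TPM + 1) (horizontal axis) for 13301 genes in the age and the treatment comparison, with the 8 myelin genes in purple. With age 7 lie between -0.55 and -0.31 and Opalin at -0.07.

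The genes whose pattern over the 9 libraries was most like the mean of the standardised members were AI837181, Hmga1, Cbs, Hapln2, Tppp3, Tbc1d9, Csrp1 and Nxn, with Pearson's r of 0.991 to 0.997 as a description. Hapln2, a link protein of nodes of Ranvier in myelinated tracts, went from 36.1 ± 2.66 through 21.99 ± 4.30 to 14.0 ± 2.01 TPM (r = 0.995). Cbs, the cystathionine beta-synthase gene, went from 16.2 ± 1.20 through 9.09 ± 1.38 to 6.67 ± 1.29 TPM (r = 0.995). The pattern was common, since 1131 of 9740 genes compared (11.6%) reached an r of 0.9, and the 9 points form 3 groups. Among the members themselves r with that mean was 0.937 to 0.991 for 7 genes and 0.665 for Opalin.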

How the data were processed

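The authors deposited TPM values per gene and library. Build mm10 and the tools HISAT2, Picard, GATK and SAMtools 0.1.18 are named in the submitters' processing notes. How TPM was computed, with which annotation and whether by strand, was not given in sources used here. Libraries were made with random primers from fragmented mRNA, per the labels' protocols. The 13301 genes whose mean over the 9 libraries reached 1 TPM were put on a log2(TPM + 1) scale and fitted together with limma 3.58.1 in R 4.3.3 (eBayes with trend). Tests were two-sided, with Benjamini-Hochberg adjustment over all genes tested and a threshold of 0.05. The fit was first tested on simulated data. No count test was run, since the table holds no counts. All members are described, and of each list the 3 genes of highest level and the 3 of smallest p per comparison could be named. Some genes of small counts, Omg, Pmp2 and genes listed at 0 were named outside this rule, after seeing their values. Some genes of the lists are not reported here. The members and lists were chosen with earlier results of these data known. Positions are from RefSeq on GRCm38.p6. Python 3.11.15, numpy 2.4.6, pandas 2.3.3 and matplotlib 3.10.9 were used. Alternatives were pseudocounts of 0.1 and 5 TPM, no filter or a mean of at least 5 TPM, 2 other scalings, the replicate number as a block, only the groups compared, leaving out each library, and 2 libraries per group, which for the lists was added after seeing the data.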

Additional observations from a re-analysis of the deposited data

How the results depend on the processing

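The members kept their sign under every alternative in all 3 comparisons, except that the treatment change turned to 0.0047 (Cldn11) without aged library 3, and to 0.0096 (Cldn11) and 0.0032 (Opalin) without treated library 2. With 2 libraries per group, calls among members went from 6 to 0 with age and from 4 to 0 with treatment, and calls among all genes from 2217 to 3, from 2771 to 249 and, for treated against young, from 6204 to 1714. That fit has fewer samples. Leaving out 1 library gave 3 to 7 members with age (3 without young library 3), 3 to 6 with treatment and 7 to 8 for treated against young, and 341 to 2644, 1348 to 3067 and 4743 to 6635 genes. The lower counts of genes with age came from leaving out young library 2 (614) or 3 (341), aged library 1 (1336) or 2 (382), or treated library 3 (1191). With treatment they came from leaving out aged library 2 (1348) or treated library 3 (1387). The treatment change of Cldn11 was -0.15 without aged library 1, and that of Opalin -0.31 without treated library 1. With the replicate number as a block, 6, 4 and 7 members and 2055, 2589 and 5944 genes passed, which changed no call of a member. Same-numbered libraries correlated at -0.0549 to 0.126 in their deviations from the group means, and 2 of 9 libraries correlated best with their own number. With 3 libraries per group, these values cannot tell whether same-numbered libraries share an origin or a batch. The labels do not say what the number stands for. TPM holds no depth, so counting error cannot be given.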

Other observations

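Ratios between members within a library, in which the total of the library cancels, were not the same in all groups. Opalin stood at 0.594 to 0.640 of Mog in young, 0.792 to 0.907 in aged and 0.829 to 1.15 in treated libraries, so that the young libraries lay below all others. Cldn11 stood at 1.14 to 1.18 times Cnp in young, 1.00 to 1.1 times in aged and 1.15 to 1.3 times in treated libraries. The ratio of Mobp to Mbp was 0.764 to 0.806 in young and 0.694 to 0.922 in aged libraries, and lay within 0.855 to 0.866 in the treated. These ratios were chosen after the values were seen and carry no test.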
